A study of Homo sapiens with 9 samples.

Results

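The 39 genes described here encode proteins of homologous recombination, of the Fanconi anaemia pathway and of the DNA damage checkpoint, taken as a named list from the 58381 genes counted in each library. All 39 were found in the count files, and 36 had enough counts to be tested. RNA was measured in EGI-1, a long-used line of human bile duct cancer (cholangiocarcinoma) cells that here carried a short hairpin RNA that doxycycline switches on. There were 3 groups of 3 libraries: FOSL1sh3 and FOSL1sh10, each with a hairpin against FOSL1, and GFPsh with a control hairpin. All 3 groups had received 2 ug/ml doxycycline for 4 days and were harvested 24 h after seeding, so the control cells had the drug and an induced hairpin too. The labels do not say whether the replicates of a group came from separate cultures, nor whether a line was a clone or a pool. The p-values therefore measure the spread between these libraries, which may be technical.

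Homologous recombination repairs a broken chromosome from an intact sister copy: the break is sensed and trimmed, and the single strand is coated with repair proteins and paired with the sister. The Fanconi core complex attaches ubiquitin to FANCD2 and FANCI at crosslinked DNA, which brings the lesion to the same machinery. The kinases ATM and ATR signal the damage through CHEK2 and CHEK1, and many of these genes are transcribed mostly in cells that replicate DNA. FOSL1 encodes FRA-1, a subunit of the transcription factor AP-1.

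Library totals ran from 6893026 to 10604251 counts, and 3 counts, the limit that a count of 0 allows, corresponded to 0.283 to 0.435 CPM (counts relative to the library total), here by these totals, which covers counting error only. All other CPM values are scaled by TMM, which adjusts the library totals to a common scale. FOSL1 itself was at 72.1, 70.1 and 44.8 CPM in FOSL1sh3 libraries and 70.7, 57.0 and 65.7 CPM in FOSL1sh10 libraries, against 302, 256 and 182 CPM in GFPsh libraries. It fell by 1.98 and 1.94 on the log2 scale (SE 0.198 and 0.197, adjusted p = 1.20e-05 and 1.03e-05 in edgeR). All 10 biliary epithelial markers passed the expression filter, as did 2 of 7 leukocyte markers (CD14 and CD74), 1 of 9 fibroblast and endothelial markers (COL1A1) and 1 of 7 hepatocyte markers (SERPINA1). CD3E, COL3A1, DCN and CYP3A4 were at 0 in all 9 libraries, and PTPRC and ALB had at most 2 and 1 counts, each in 1 library. The summed leukocyte markers were at 30.5 to 38.4 CPM in FOSL1sh3, 124 to 168 CPM in FOSL1sh10 and 30.4 to 38.2 CPM in GFPsh, and CD74 held most of that sum. The fibroblast and endothelial markers summed to 4.30 to 7.997 CPM in FOSL1sh3 and 8.11 to 9.55 CPM in FOSL1sh10, against 2.92 to 4.73 CPM in GFPsh, and PECAM1 and CDH5, which did not pass the filter, were higher in each FOSL1sh10 library than in any other library. The hepatocyte markers summed to 8.49 to 11.8 CPM in FOSL1sh3 and 13.8 to 17.6 CPM in FOSL1sh10, against 6.27 to 7.71 CPM in GFPsh. In FOSL1sh10 CD74 rose by 2.22 and SERPINA1 by 1.27 on the log2 scale (adjusted p = 1.18e-07 and 0.00141 in edgeR). Biliary markers ran from -0.47 to 1.45 in FOSL1sh3 and from -0.55 to 0.71 in FOSL1sh10. In FOSL1sh3 KRT7 and ITGB4 were called higher (adjusted p = 0.0432 and 8.28e-06 in edgeR), and in FOSL1sh10 only KRT7 (0.00456). No biliary marker was called lower against GFPsh. Of all genes 5.21% and 3.13% were called higher in FOSL1sh3 and FOSL1sh10. The part of these markers in the members' values was not tested.

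Of the 36 genes tested, 5 were called in FOSL1sh3 or FOSL1sh10 cells against GFPsh or between the hairpins. RAD51AP1, which stimulates strand exchange, and FANCB, a subunit of the Fanconi core complex, fell in FOSL1sh3 cells together with CHEK1, the kinase that acts after ATR. FANCB passed the expression filter only with its GFPsh libraries, where it was highest. RAD51D, a subunit of a recombination complex, fell in FOSL1sh10 cells. RAD51AP1, RAD51D and CHEK2, the kinase that acts after ATM, differed between the hairpins. No member was called higher with either hairpin against GFPsh. The share of the 36 tested members called was 8.33% in FOSL1sh3, where 10.9% of all genes were called, and 2.78% in FOSL1sh10, where 5.28% were, both below the share over all genes. Between the hairpins 3 of the 36 were called, a share again below that over all genes, 12.7%.

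The promoter regions of the 4 genes that fell with a hairpin are shown because FOSL1 encodes a DNA-binding protein whose best known site, TGANTCA, can be looked for in them. Each is the 250 bases before a transcription start in RefSeq (GRCh38.p14), 5′ to 3′ on the strand of the gene. Capitals mark the CCAAT box, CCAAT or its reverse complement, which is the binding sequence of NF-Y. RefSeq gives RAD51D and CHEK1 further starts, and 1 window is printed for each. By the gene annotation of the count files the windows of RAD51D and CHEK1 lie inside the gene, and that of RAD51AP1 lies partly inside. The bases before the outermost annotated starts of RAD51D and CHEK1 were therefore not searched. RAD51AP1 is at chr12:4538640-4538889 (plus strand), RAD51D at chr17:35119861-35120110 (minus strand), FANCB at chrX:14873070-14873319 (minus strand) and CHEK1 at chr11:125625979-125626228 (plus strand).
RAD51AP1: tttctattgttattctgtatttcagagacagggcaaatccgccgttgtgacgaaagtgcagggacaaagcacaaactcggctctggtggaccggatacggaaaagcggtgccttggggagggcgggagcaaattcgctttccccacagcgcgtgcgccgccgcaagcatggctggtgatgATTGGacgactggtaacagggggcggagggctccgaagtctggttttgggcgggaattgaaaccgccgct
RAD51D: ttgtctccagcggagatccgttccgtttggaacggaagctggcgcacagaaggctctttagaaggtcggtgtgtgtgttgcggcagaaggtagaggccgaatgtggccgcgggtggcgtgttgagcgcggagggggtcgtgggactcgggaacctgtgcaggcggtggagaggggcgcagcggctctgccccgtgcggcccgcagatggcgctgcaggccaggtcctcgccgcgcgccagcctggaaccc
FANCB: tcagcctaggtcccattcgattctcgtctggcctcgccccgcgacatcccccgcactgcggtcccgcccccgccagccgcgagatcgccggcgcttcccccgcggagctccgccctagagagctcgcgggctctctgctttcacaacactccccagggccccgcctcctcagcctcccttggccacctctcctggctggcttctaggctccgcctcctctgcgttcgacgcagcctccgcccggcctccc
CHEK1: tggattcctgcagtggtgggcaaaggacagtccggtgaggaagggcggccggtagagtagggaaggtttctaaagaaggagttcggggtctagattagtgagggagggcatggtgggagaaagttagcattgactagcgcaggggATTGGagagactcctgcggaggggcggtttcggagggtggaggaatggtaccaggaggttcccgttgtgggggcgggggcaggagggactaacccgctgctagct
The AP-1 letters TGANTCA were in none of the 47 windows of the 36 members that RefSeq matched, against 6.57% of 35116 windows of all genes. NBN, FANCI and RAD54B had no window, so these members are not the same set as those tested. The CCAAT box was in 51.1% of the members' windows, against 32.0% of all windows. The windows of RAD51AP1 and CHEK1 above hold a CCAAT box, and those of RAD51D and FANCB hold none of the motifs searched. The E2F letters TTTCCCGC, TTTGGCGC, TTTCGCGC or TTTGCCGC were in the windows of FANCA and FANCC, 4.26% of the members' windows against 2.79% of all. The cell cycle element CHR (TTTGAA or TTCGAA) was in 10.6% against 14.3%, and the cyclic AMP element TGACGTCA, in EXO1, RAD51C and XRCC2, was in 6.38% against 1.65%. Both strands were searched, CHR and E2F letters can overlap other motifs, and several windows of a gene can share bases. A match is a description of letters, and a missing match says only that these letters are not in these windows.

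Over the 36 members tested, 3 were called lower and 0 higher in FOSL1sh3 cells, where 5.65% of all 12814 genes tested were called lower and 5.21% higher. The quasi-likelihood test in edgeR at an unadjusted p under 0.05 had 8 members lower and 1 higher, of all genes 1766 and 1681. DESeq2 also called 3 members, and 1539 genes in all. In FOSL1sh10 cells 1 member was called lower and 0 higher, where 2.15% of all genes were called lower and 3.13% higher. There 7 members were lower and 0 higher at an unadjusted p under 0.05, of all genes 1199 and 1289. DESeq2 called 2 members there, and 821 genes in all. The 2 comparisons share the GFPsh libraries. The members' median log2 fold change was -0.26 in FOSL1sh3 and -0.16 in FOSL1sh10, against 0.01 and 0.00 over all genes. Below 0 were 26 and 24 of the 36 members, and 6333 and 6381 of all 12814 genes. Scaling by library totals alone moved the median of all genes in FOSL1sh10 to 0.11 and that of the members to -0.06, which kept the distance between them. By library totals alone 932 of 1412 calls over all genes were lower in FOSL1sh3 (724 of 1392 with TMM scaling), and 189 of 837 in FOSL1sh10 (275 of 676 with TMM scaling).

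Taken as a sum, the 39 members had 896 to 980 CPM in FOSL1sh3 libraries and 907 to 959 CPM in FOSL1sh10 libraries, against 1046 to 1135 CPM in GFPsh libraries. With TMM scaling the groups with a FOSL1 hairpin did not overlap the control, at 86.3% of its mean with each hairpin. H2AX, at a mean of 309 CPM in GFPsh, had the highest level of the members, and without it the sums were at 87.1% and 90.3% of the control. By library totals alone the sum of all 39 members in FOSL1sh10 overlapped the control, and that in FOSL1sh3 stayed below it. In bulk RNA fewer cycling cells and less RNA per cell cannot be told apart.

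**Figure D1:**
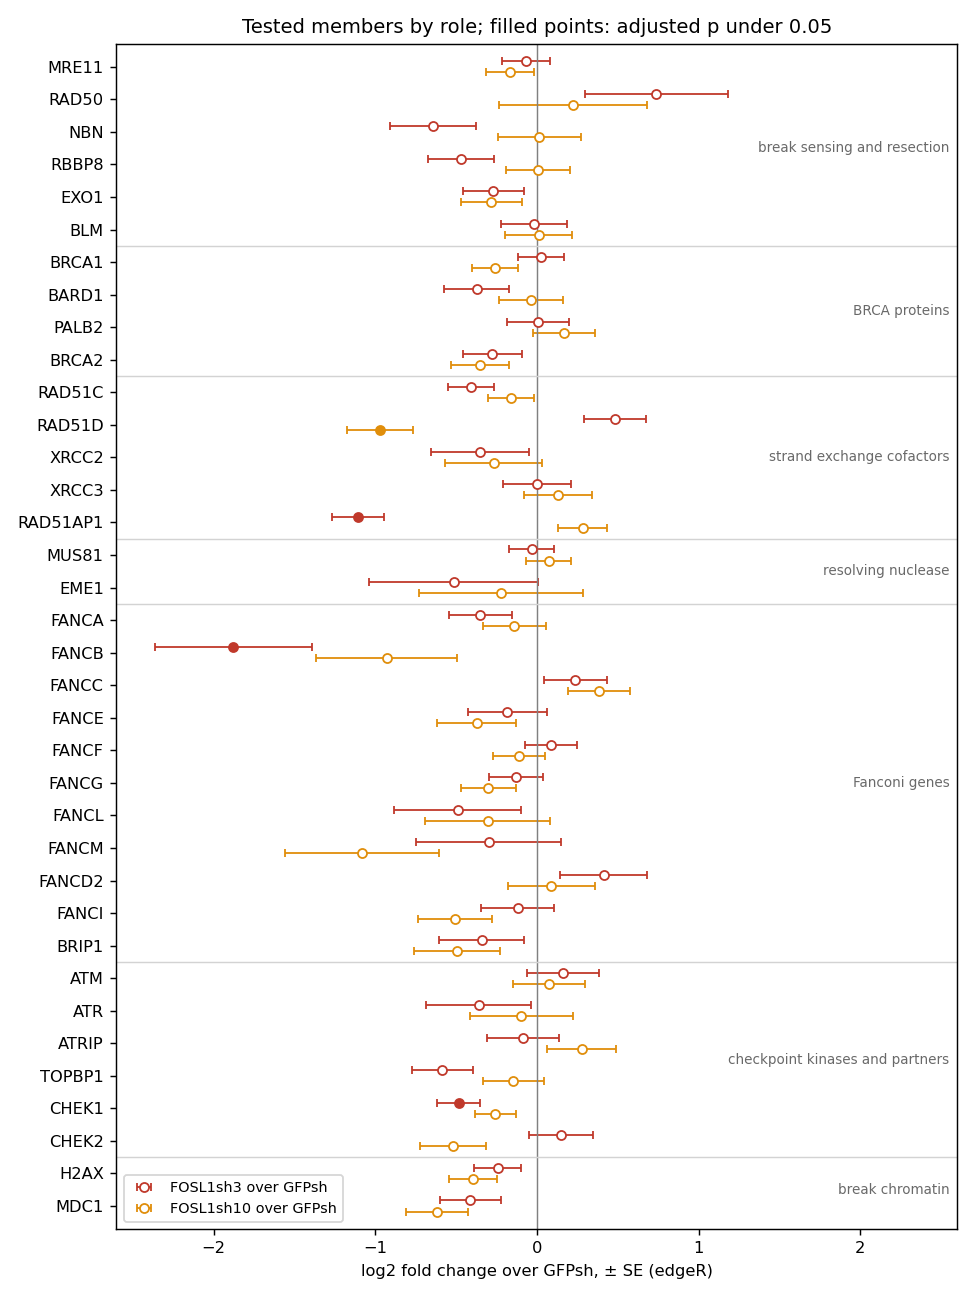
Log2 fold change over GFPsh (horizontal axis, points, with the SE as bars) of the 36 tested members in FOSL1sh3 (red) and FOSL1sh10 (orange), grouped by role; filled points had an adjusted p under 0.05. The filled points are RAD51AP1, FANCB and CHEK1 in FOSL1sh3 and RAD51D in FOSL1sh10, all left of 0.

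Among the 6 genes of break sensing and resection none was called in any comparison. Their log2 fold changes in FOSL1sh3 ran from -0.64 for NBN to 0.74 for RAD50, both genes of subunits of the MRE11 complex that binds broken ends, and the smallest adjusted p was 0.129. In FOSL1sh10 they ran from -0.28 for EXO1, a resecting nuclease, to 0.22 for RAD50, with a smallest adjusted p of 0.453. RAD50 had 6 to 19 counts a library, with 79.7% of its exon bases shared with other genes. The third subunit, MRE11, averaged 60.5 ± 6.27 CPM in FOSL1sh3 and 56.6 ± 6.77 CPM in FOSL1sh10, against 63.4 ± 8.79 CPM in GFPsh (SD, n = 3 each). RBBP8 encodes CtIP, which starts resection, and averaged 19.9 ± 5.68 CPM in FOSL1sh3 and 27.7 ± 2.62 CPM in FOSL1sh10, against 27.6 ± 4.67 CPM in GFPsh. The helicase gene BLM had log2 fold changes of -0.02 (SE 0.206) and 0.01 (SE 0.205) in FOSL1sh3 and FOSL1sh10.

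None of the 4 BRCA proteins' genes was called. BRCA1, which with BARD1 forms a ubiquitin ligase, was at 40.9, 47.3 and 45.7 CPM in FOSL1sh3 libraries and 36.7, 40.4 and 32.7 CPM in FOSL1sh10 libraries, against 40.9, 44.3 and 46.3 CPM in GFPsh libraries. With TMM scaling the FOSL1sh10 libraries all lay below the controls, and the FOSL1sh3 libraries overlapped them. Its log2 fold change was 0.02 (SE 0.141, adjusted p = 0.937) in FOSL1sh3 and -0.26 (SE 0.142, adjusted p = 0.336) in FOSL1sh10. By library totals alone the value for BRCA1 in FOSL1sh3 was -0.04.

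BRCA2, a central protein of recombination, was at 14.0, 13.8 and 13.5 CPM in FOSL1sh3 libraries and 12.2, 13.0 and 13.8 CPM in FOSL1sh10 libraries, against 14.7, 15.8 and 19.4 CPM in GFPsh libraries. With TMM scaling all 6 libraries with a FOSL1 hairpin were below all 3 controls. The test gave -0.28 in FOSL1sh3 (SE 0.18, adjusted p = 0.351) and -0.35 in FOSL1sh10 (SE 0.18, adjusted p = 0.295), so the difference did not pass. BARD1 was at -0.37 and -0.04, and PALB2, which joins BRCA1 to BRCA2, at 0.00 and 0.17 on the log2 scale in FOSL1sh3 and FOSL1sh10.

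RAD51AP1 (hg38, chr12:4538798-4560048, plus strand) had the smallest p among the members. It was at 14.1, 13.0 and 15.6 CPM in FOSL1sh3 libraries and 36.7, 37.0 and 38.2 CPM in FOSL1sh10 libraries, against 31.2, 27.3 and 33.5 CPM in GFPsh libraries. The 3 groups did not overlap: FOSL1sh3 lay below the controls and FOSL1sh10 above them. In FOSL1sh3 it fell to 0.465 of the control level, -1.11 on the log2 scale (SE 0.159, adjusted p = 0.000383), and the call held in all 15 alternative analyses, with adjusted p from 1.51e-07 to 0.00343. In FOSL1sh10 it was at 0.28 (SE 0.151, adjusted p = 0.327), which did not pass. The difference between the hairpins, FOSL1sh3 over FOSL1sh10, was -1.39 (SE 0.159, adjusted p = 2.17e-05).

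RAD51D (chr17:35092208-35121522, minus strand) showed the other order. It was at 20.8, 17.7 and 17.8 CPM in FOSL1sh3 libraries and 7.97, 5.53 and 7.11 CPM in FOSL1sh10 libraries, against 12.9, 14.8 and 12.5 CPM in GFPsh libraries. Again the 3 groups did not overlap, here with FOSL1sh10 lowest and FOSL1sh3 highest. In FOSL1sh10 it fell to 0.51 of the control level, -0.97 on the log2 scale (SE 0.203, adjusted p = 0.00725). Without the second FOSL1sh10 library, the lowest of the 9, the value was -0.85 and the adjusted p 0.0526, the only 1 of 15 alternatives to end the call, and over them the adjusted p ran from 0.001 to 0.0526. In FOSL1sh3 the log2 fold change of 0.48 (SE 0.19, adjusted p = 0.109) did not pass, and FOSL1sh3 over FOSL1sh10 was 1.46 (SE 0.201, adjusted p = 0.000169). RAD51D shares 9.45% of its exon bases with other annotated genes, among them a read-through transcript, and reads there are not counted for either gene.

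**Figure D2:**
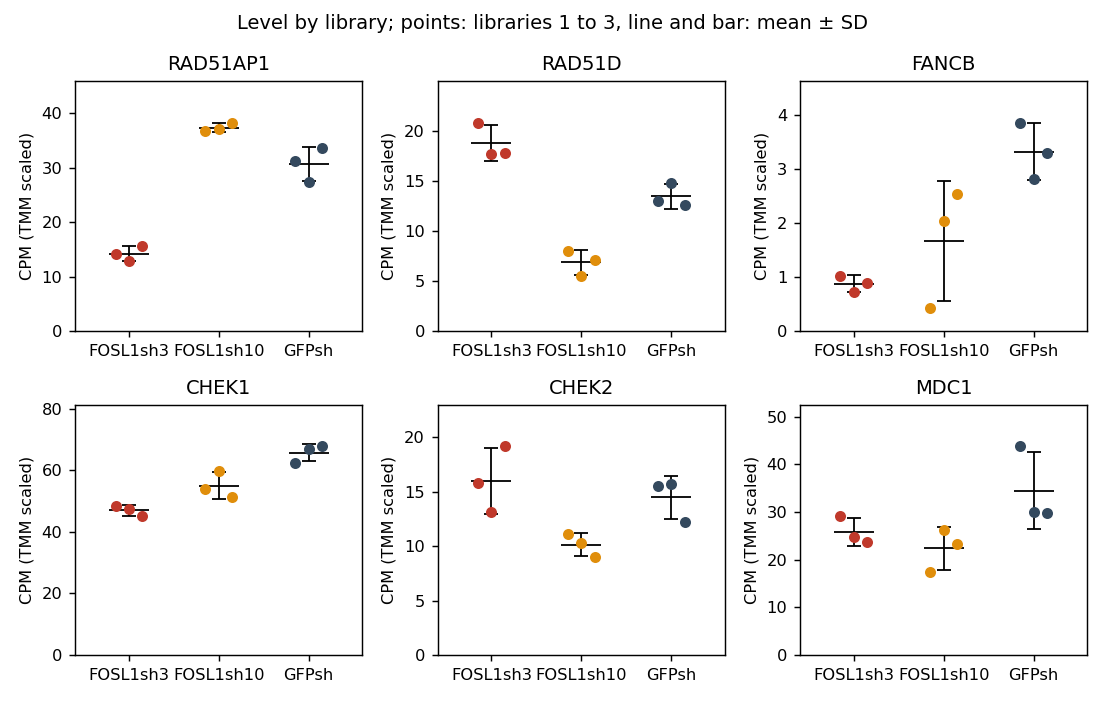
Level in CPM scaled by TMM (vertical axes, from 0) of 6 members in each library of FOSL1sh3, FOSL1sh10 and GFPsh; points are libraries 1 to 3 from left to right, the line is the mean and the bar the SD. RAD51AP1 is lowest in FOSL1sh3 at 13.0 to 15.6 CPM, and RAD51D is lowest in FOSL1sh10 at 5.53 to 7.97 CPM.

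RAD51C, which forms complexes with RAD51D, XRCC2 and XRCC3, was at 70.8, 70.1 and 52.0 CPM in FOSL1sh3 libraries and 78.7, 75.7 and 74.9 CPM in FOSL1sh10 libraries, against 80.5, 83.3 and 92.0 CPM in GFPsh libraries. With TMM scaling all 6 libraries with a FOSL1 hairpin were below the controls. The values were -0.41 on the log2 scale in FOSL1sh3 (SE 0.143, adjusted p = 0.0747) and -0.16 in FOSL1sh10 (SE 0.142, adjusted p = 0.603), and neither passed. By library totals alone RAD51C passed in FOSL1sh3 with an adjusted p of 0.0403, and over its 15 alternatives the adjusted p ran from 0.0403 to 0.246. Its partners XRCC2 and XRCC3 were not called, XRCC2 with a spread of 5.20 to 16.1 CPM within FOSL1sh3 alone. XRCC3 shares 76.7% of its exon bases with KLC1, though 0% of its last 1000, and reads over shared bases were not counted. RAD54L and RAD54B, DNA translocases of recombination, had at most 3 and 11 counts in a library and were not tested. The nuclease genes MUS81 and EME1, whose products cut joined strands, were not called, and EME1 had 6 to 21 counts a library.

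FANCB (chrX:14835961-14873069, minus strand) was called among the 11 Fanconi genes. Its counts were 10, 5 and 7 in FOSL1sh3 libraries and 3, 18 and 25 in FOSL1sh10 libraries, against 28, 25 and 30 in GFPsh libraries. On the scaled level this was 1.02, 0.72 and 0.889 CPM in FOSL1sh3 and 0.427, 2.03 and 2.54 CPM in FOSL1sh10, against 3.85, 2.81 and 3.30 CPM in GFPsh. All 6 libraries with a FOSL1 hairpin were below the controls, and the first FOSL1sh10 library was, with its 3 counts, at the limit that a count of 0 allows. In FOSL1sh3 FANCB fell to 0.272 of the control level, -1.88 on the log2 scale (SE 0.485, adjusted p = 0.0196). The FOSL1sh10 value of -0.93 (SE 0.438, adjusted p = 0.25) did not pass, and the mean of both hairpins gave -1.40 (SE 0.384, adjusted p = 0.036). FANCB passed the expression filter only with its GFPsh libraries, and in a fit of only the FOSL1 hairpin groups it was not tested. The filter thus let FANCB in by its control level, which its calls against GFPsh also use.

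The FANCB call in FOSL1sh3 was lost without FOSL1sh3 library 3, GFPsh library 1 or GFPsh library 3, with adjusted p of 0.0602, 0.0799 and 0.0581, and its adjusted p ran from 0.00204 to 0.0799 over 15 alternatives. The call for the mean of both hairpins was lost in 6 of 14 alternatives, each leaving out 1 library (FOSL1sh3 library 2 or 3, FOSL1sh10 library 2, or any GFPsh library), with adjusted p over the 14 from 0.0059 to 0.164. FANCB was the 1 member called for that mean, where 6.22% of all genes were called, 2.97% lower and 3.25% higher.

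The other core complex genes (FANCA, FANCC, FANCE, FANCF, FANCG, FANCL and FANCM) did not pass in any comparison. FANCM, the translocase that finds the lesion, was at -1.08 in FOSL1sh10 (SE 0.477, adjusted p = 0.215) on 3 to 21 counts a library. FANCC was at 0.24 and 0.38 in FOSL1sh3 and FOSL1sh10, and all 3 FOSL1sh10 libraries were above the controls. The substrates of the complex did not pass either. FANCD2 was at 13.7, 9.93 and 12.3 CPM in FOSL1sh3 libraries and 10.1, 6.32 and 12.4 CPM in FOSL1sh10 libraries, against 6.60, 12.5 and 7.92 CPM in GFPsh libraries. The groups overlapped, and the log2 fold change was 0.41 in FOSL1sh3 (SE 0.269, adjusted p = 0.348) and 0.09 in FOSL1sh10 (SE 0.272, adjusted p = 0.904). FANCI was at -0.12 and -0.51, and the helicase gene BRIP1 at -0.34 and -0.49, with all 6 libraries with a FOSL1 hairpin below the controls for BRIP1.

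CHEK1 (chr11:125625136-125676255, plus strand) was at 48.2, 47.5 and 45.1 CPM in FOSL1sh3 libraries and 53.9, 59.8 and 51.2 CPM in FOSL1sh10 libraries, against 62.5, 66.8 and 67.7 CPM in GFPsh libraries. With TMM scaling the 3 groups did not overlap, with FOSL1sh3 lowest. In FOSL1sh3 it fell to 0.715 of the control level, -0.48 on the log2 scale (SE 0.13, adjusted p = 0.0237), and the FOSL1sh10 value of -0.26 (SE 0.129, adjusted p = 0.29) did not pass. The call was lost without FOSL1sh3 library 3 or any 1 of the 3 GFPsh libraries, and in a fit of only those 2 groups, with adjusted p from 0.013 to 0.072 over 15 alternatives. The size of the change stayed between -0.55 and -0.46. FOSL1sh3 over FOSL1sh10 was -0.23 (SE 0.131, adjusted p = 0.267).

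CHEK2 (chr22:28687743-28742422, minus strand) was at 15.8, 13.1 and 19.2 CPM in FOSL1sh3 libraries and 11.1, 10.3 and 9.05 CPM in FOSL1sh10 libraries, against 15.5, 15.7 and 12.2 CPM in GFPsh libraries. FOSL1sh10 lay below both other groups, and FOSL1sh3 overlapped the controls. FOSL1sh3 over FOSL1sh10 was 0.67 (SE 0.202, adjusted p = 0.0377), while the values against GFPsh, 0.15 and -0.52 in FOSL1sh3 and FOSL1sh10, did not pass (adjusted p = 0.678 and 0.158). The difference between the hairpins was lost by library totals alone (adjusted p = 0.104), in a fit of only those 2 groups (0.0511) and without any 1 of 5 libraries with a FOSL1 hairpin, all but FOSL1sh3 library 2, with adjusted p from 0.019 to 0.138 over 15 alternatives.

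The upstream kinases did not pass. ATM was at 16.4, 20.1 and 21.2 CPM in FOSL1sh3 libraries and 17.5, 22.7 and 14.1 CPM in FOSL1sh10 libraries, against 12.8, 16.1 and 22.4 CPM in GFPsh libraries. ATR was at 2.35, 2.45 and 3.43 CPM in FOSL1sh3 libraries and 2.70, 4.29 and 2.85 CPM in FOSL1sh10 libraries, against 3.44, 3.26 and 3.85 CPM in GFPsh libraries. The groups overlapped for ATM, and for ATR FOSL1sh10 spanned the control range. On the log2 scale ATM was at 0.16 in FOSL1sh3 (SE 0.222, adjusted p = 0.687) and 0.08 in FOSL1sh10 (SE 0.222, adjusted p = 0.899). ATR was at -0.36 in FOSL1sh3 (SE 0.324, adjusted p = 0.514) and -0.10 in FOSL1sh10 (SE 0.316, adjusted p = 0.911). ATRIP, the partner of ATR, was at -0.09 and 0.28. TOPBP1, which activates ATR, had its 3 FOSL1sh3 libraries at 9.65 to 13.3 CPM, against 15.7 to 21.1 CPM in GFPsh, and was at -0.58 on the log2 scale (SE 0.191) with an adjusted p of 0.0572, which did not pass.

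At the break itself, MDC1 binds phosphorylated H2AX and gathers further repair proteins. MDC1 was at 29.1, 24.8 and 23.6 CPM in FOSL1sh3 libraries and 17.5, 26.2 and 23.4 CPM in FOSL1sh10 libraries, against 43.8, 30.0 and 29.7 CPM in GFPsh libraries. All 6 libraries with a FOSL1 hairpin were below the controls, though the highest of them, at 29.1 CPM, was close to the lowest control, at 29.7 CPM. The values of -0.41 in FOSL1sh3 (SE 0.19, adjusted p = 0.173) and -0.62 in FOSL1sh10 (SE 0.191, adjusted p = 0.0695) did not pass. In FOSL1sh10 MDC1 passed in 3 of 15 alternatives, with DESeq2, without the filter on low counts and with only the groups compared, and the adjusted p ran from 0.029 to 0.317. H2AX was at 289, 259 and 235 CPM in FOSL1sh3 libraries and 237, 238 and 230 CPM in FOSL1sh10 libraries, against 351, 330 and 246 CPM in GFPsh libraries. The third control lay within the FOSL1sh3 range, and the values of -0.24 in FOSL1sh3 (SE 0.148, adjusted p = 0.311) and -0.39 in FOSL1sh10 (SE 0.148, adjusted p = 0.138) did not pass. TP53BP1, whose product favours end joining over resection, had 1 to 9 counts a library and was not tested.

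Counted by library rather than by test, 9 of the 36 members had all 3 FOSL1sh3 libraries below all controls, 25.0% against 14.5% of all genes, and 2 had all above, where 14.7% of all genes did. In FOSL1sh10 12 members were below, 33.3% against 13% of all genes, and 3 were above, where 14.3% did. With all 6 libraries of both hairpins, 6 members were below the controls and 0 above: BRCA2, BRIP1, RAD51C, FANCB, CHEK1 and MDC1. These were 16.7% of the members, where 4.39% of all genes were below and 5.28% above. FANCB among them passed the expression filter only with its GFPsh libraries. All these positions are with TMM scaling. By library totals alone BRCA2, RAD51C and CHEK1 overlap the controls in FOSL1sh10. Between the hairpins 3 members were called, RAD51AP1 lower and RAD51D and CHEK2 higher in FOSL1sh3, where 12.7% of all genes were called, 6.99% lower and 5.74% higher. Of those calls over all genes 896 of 1632 were lower in FOSL1sh3 with TMM scaling and 1804 of 2189 by library totals alone. The members' median for FOSL1sh3 over FOSL1sh10 was -0.06, against 0.00 over all genes, and by library totals alone -0.23, against -0.17.

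The library protocol reads transcripts near their 3' ends, and reads over exon bases shared with another gene were not counted, so the annotated 3' ends were compared. For 8 members over 40% of the last 1000 exon bases were shared. These were ATRIP with TREX1 (100%), FANCA with ZNF276 (83.7%), TP53BP1 with TUBGCP4 (78.2%), RAD50 with TH2LCRR and another gene (73.5%), RAD54B with FSBP (71.1%), RAD54L with LRRC41 (56.6%), FANCL with VRK2 and another gene (45.2%) and FANCI with POLG (43.1%). The median level of the 8 was 2.75 CPM over the 9 libraries, and 5 of them passed the filter. The other 31 members all passed, with a median of 15.3 CPM. Low values of these 8 members were not read as low expression, and the part of the sharing in their levels was not tested. The 5 members called in any comparison shared none of their last 1000 exon bases.

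**Figure D3:**
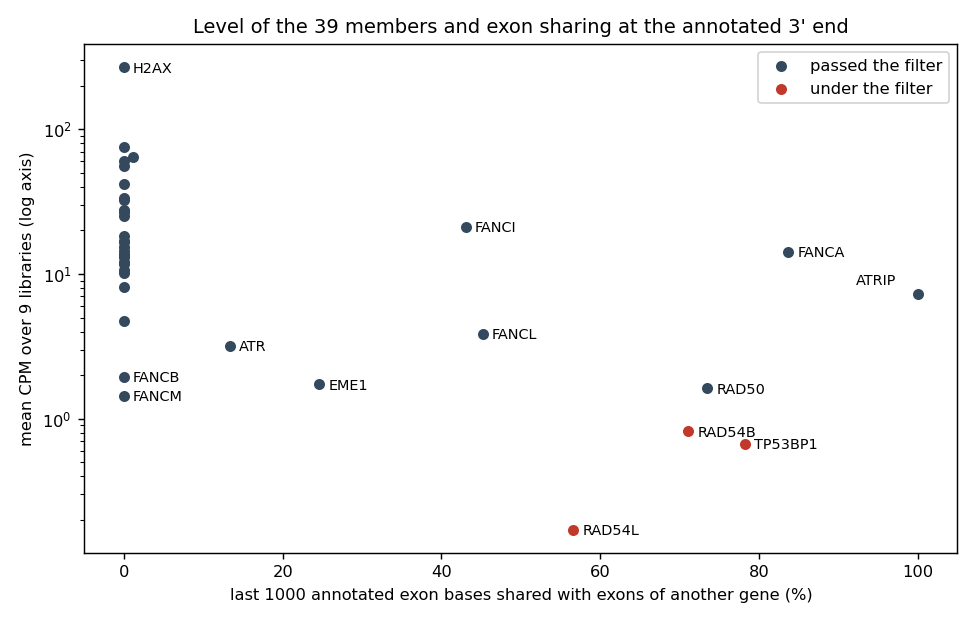
Mean level over 9 libraries (vertical log axis, CPM) of the 39 members against the share of the last 1000 annotated exon bases that lie in exons of another gene (horizontal axis, %); blue points passed the expression filter and red points did not. All 3 red points (RAD54L, RAD54B and TP53BP1) have more than 40% shared.

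The rest of the pathways was described with a second list. Of 56 further recombination, Fanconi and checkpoint genes, 54 were tested, and 2 were called lower and 1 higher in FOSL1sh3, with a median log2 fold change of -0.19. In FOSL1sh10 2 were called lower and 1 higher, with a median of -0.13. The share called lower was 3.7% in each, where 5.65% of all genes were called lower in FOSL1sh3 and 2.15% in FOSL1sh10. Of all genes 5.21% were called higher in FOSL1sh3 and 3.13% in FOSL1sh10. FAAP20, a ubiquitin-binding subunit of the Fanconi core complex, was at 55.6, 54.5 and 56.7 CPM in FOSL1sh3 libraries and 60.0, 64.8 and 62.2 CPM in FOSL1sh10 libraries, against 38.3, 37.0 and 38.8 CPM in GFPsh libraries. On the log2 scale it rose by 0.55 in FOSL1sh3 (SE 0.13, adjusted p = 0.0118) and by 0.71 in FOSL1sh10 (SE 0.13, adjusted p = 0.00212), and both calls held in all 15 alternatives. Of the last 1000 exon bases of FAAP20, 59% are shared with PRKCZ and another gene, so its counts come from the rest of the gene.

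CLSPN encodes claspin, which presents CHEK1 to ATR, and was at 37.5, 45.0 and 39.4 CPM in FOSL1sh3 libraries and 37.1, 39.5 and 44.1 CPM in FOSL1sh10 libraries, against 48.0, 58.5 and 75.4 CPM in GFPsh libraries. It fell by 0.58 (adjusted p = 0.029) and 0.59 (adjusted p = 0.0395). Without GFPsh library 3, where it was highest, the values were -0.40 and -0.40 and neither passed (adjusted p = 0.158 and 0.215). Over 15 alternatives each the adjusted p of CLSPN ran from 0.0127 to 0.158 in FOSL1sh3 and from 0.0165 to 0.215 in FOSL1sh10, with 10 and 9 of them past the threshold. MMS22L, which acts at stalled forks, fell by 0.85 in FOSL1sh3 (adjusted p = 0.0399), and MCM8, a recombination helicase, fell by 0.59 in FOSL1sh10 (adjusted p = 0.0344), and each passed in 8 of 15 alternatives. Between the hairpins WDR48, the partner of the FANCD2 deubiquitinase, was higher in FOSL1sh3 by 0.88 (adjusted p = 0.0109), and RPA3, a subunit of the single-strand binding complex, by 0.93 (adjusted p = 0.0488), and they passed in 14 and 5 of 15 alternatives.

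End joining, the competing route of break repair, had 16 genes tested of 18. MAD2L2, a subunit of shieldin that protects ends from resection, rose by 0.48 in FOSL1sh3 (SE 0.14, adjusted p = 0.0374) and passed in 5 of 15 alternatives, the 1 call among the 16, where 5.21% of all genes were called higher. No end joining gene was called in FOSL1sh10, in the quasi-likelihood test of edgeR, where 5.28% of all genes were called. At an unadjusted p under 0.05 that test had 1 lower and 1 higher, of all genes 1199 and 1289. The medians were 0.03 and -0.02 in FOSL1sh3 and FOSL1sh10.

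Some genes of replication and of mitosis were called lower in the same comparisons. Of 31 replication fork and S phase genes tested, 4 were called lower and 0 higher in FOSL1sh3 (POLE2, RRM1, CDC6 and RRM2) and 3 lower and 0 higher in FOSL1sh10 (among them POLE2 and MCM4), with medians of -0.23 and -0.24. These were 12.9% and 9.68% of the list, where 5.65% and 2.15% of all genes were called lower. POLE2, a subunit of the leading strand polymerase, fell by 1.52 in FOSL1sh3 (adjusted p = 0.00105) and was called in FOSL1sh10 as well (adjusted p = 0.0175), in 15 and 11 of 15 alternatives. RRM1, CDC6 and RRM2 passed in 10, 8 and 4 of 15 alternatives in FOSL1sh3, with adjusted p of up to 0.187, 0.132 and 0.175, and MCM4 passed in 8 in FOSL1sh10, with an adjusted p of up to 0.171. Of 24 mitosis genes 9 and 7 were called lower and 0 higher in FOSL1sh3 and FOSL1sh10, 37.5% and 29.2% of them, with medians of -0.38 and -0.45. KIF23, AURKA, CCNB1 and CENPA had the smallest p in FOSL1sh3, and TOP2A fell by 1.02 in FOSL1sh10 (adjusted p = 0.000366). The summed S phase genes were at 2618 to 2795 CPM in FOSL1sh3 and 2576 to 2723 CPM in FOSL1sh10, against 3120 to 3304 CPM in GFPsh, and the summed mitosis genes at 2019 to 2533 CPM in FOSL1sh3 and 2299 to 2356 CPM in FOSL1sh10, against 3018 to 3188 CPM in GFPsh. The part of the cell cycle genes in the members' lower values was not tested.

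**Figure D4:**
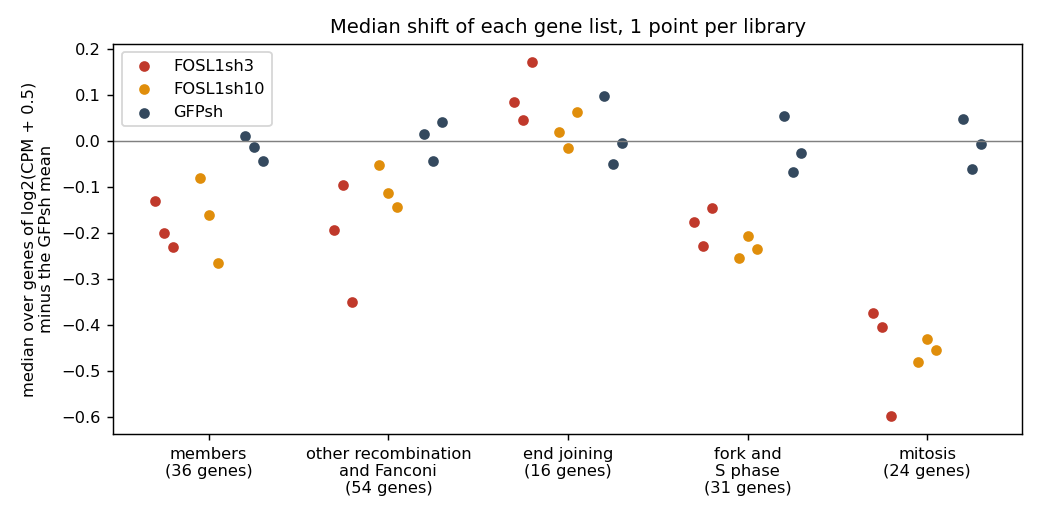
Median over the genes of a list of log2(CPM + 0.5) minus the GFPsh mean (vertical axis), 1 point a library, for FOSL1sh3, FOSL1sh10 and GFPsh. The members lie between -0.23 and -0.13 in FOSL1sh3 and between -0.27 and -0.08 in FOSL1sh10, against -0.04 to 0.01 in GFPsh, and mitosis genes lie lower, at -0.60 to -0.37 and -0.48 to -0.43.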

How the data were processed

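For each library the authors deposited a table of counts, the whole number of reads on every gene, without normalization. Per the labels' protocols, libraries were made by low-input RNA-seq (MARS-seq), which as background tags transcripts near their 3' ends. Per the submitters' processing notes, FastQC 0.11.5 was used for quality control and STAR 2.5.3a for alignment, with hg38 as the build. Per the file headers, featureCounts 1.6.0 counted reads over exons by gene with GENCODE release 28, with no strand, multi-mapping, overlap or duplicate option set. Reads of overlapping genes on opposite strands therefore cannot be told apart, and a read over exons of 2 genes is dropped. The sources used here do not say whether molecular identifiers were collapsed, so counting limits cover counting error only.

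The main test was edgeR's quasi-likelihood F test (edgeR 4.0.16 in R 4.3.3), fitted once to the 9 libraries by group alone. Genes first passed edgeR's filter for a count of 10 and a total of 15, and libraries were scaled by TMM. In each of 4 comparisons, calls needed a p under 0.05 after Benjamini-Hochberg adjustment across the 12814 genes tested. The SE was the absolute log2 fold change divided by the root of F. Levels are CPM scaled by TMM, mean ± SD, and the common biological coefficient of variation was 16.4%. Values in every library are given for members called in any comparison, the 6 with the smallest p for the mean of both hairpins, and BRCA1, BRCA2, FANCD2, ATM, ATR and CHEK1. From the other lists the called genes are named, at most 4 a comparison, except a gene that is not reported here. The members and lists were chosen with earlier results of these data known. Symbols were matched by stable identifier, with GENCODE release 29 names for older symbols (1 member, H2AX). Promoters are from RefSeq. Alternatives used DESeq2 1.42.0 (test and size factors), library totals, no low-count filter, only the groups compared, the replicate number as a block, and leaving out each library. The test was tested on simulated data with known changes.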

Additional observations from a re-analysis of the deposited data

Results flagged for a closer look

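RAD51AP1, RAD51D and CHEK2 differed between the hairpins in a direct test, FOSL1sh3 over FOSL1sh10, in edgeR's quasi-likelihood test. RAD51AP1 had a log2 fold change of -1.39 (adjusted p = 2.17e-05), with all 3 FOSL1sh3 libraries below all 3 FOSL1sh10 libraries. RAD51D had 1.46 (adjusted p = 0.000169) in the other direction, also without overlap. CHEK2 had 0.665 (adjusted p = 0.0377), without overlap, and lost the call in 7 of 15 alternatives. FOSL1 itself was at 62.3 ± 15.2 CPM in FOSL1sh3 and 64.4 ± 6.95 CPM in FOSL1sh10 (SD, n = 3 each), or -0.05 between them on the log2 scale (SE 0.195, adjusted p = 0.9).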

How the results depend on the processing

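The calls of RAD51AP1 in FOSL1sh3 and of RAD51AP1 and RAD51D between the hairpins held in all 15 alternatives. The number of members called in FOSL1sh3, 3 with TMM, was 5 by library totals (RAD51C and TOPBP1 added) and 1 to 3 when each of the 9 libraries was left out, where 1 was RAD51AP1, without FOSL1sh3 library 3, GFPsh library 1 or GFPsh library 3. By library totals 1412 genes in all were called there, 932 of them lower, against 1392 with TMM. In FOSL1sh10 the number, 1, was 2 with DESeq2, without the low-count filter and with only the groups compared (MDC1 added), and 0 to 1 leaving out a library, 0 without FOSL1sh10 library 2. Genes called in all there were 821 with DESeq2 and 907 without the low-count filter, against 676. For the mean of both hairpins, 1 became 2 with DESeq2 (CHEK1 added) and 2 without the low-count filter (MDC1 added), where 957 and 989 genes in all were called. Leaving out a library it was 0 to 1, and without FOSL1sh3 library 3 the 1 was RAD51AP1 in place of FANCB. Between the hairpins, 3 became 5 by library totals (CHEK2 lost, TOPBP1, NBN and RBBP8 added), and 2 to 3 leaving out a library. Genes called in all leaving out a library numbered 599 to 1803 in FOSL1sh3 (1392 with all), 347 to 919 in FOSL1sh10 (676), 312 to 1002 for the mean (797) and 712 to 1920 between the hairpins (1632), and 1124 in FOSL1sh10 with only the groups compared. The cause of these shifts was not tested.

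Values near 0 changed sign by library totals: BRCA1 in FOSL1sh3 (-0.042), ATR in FOSL1sh10 (0.013), and BRCA2 (-0.094), ATM (-0.086) and H2AX (-0.023) between the hairpins. Leaving out each library, values ran from -0.023 to 0.083 for BRCA1 in FOSL1sh3, from -0.16 to 0.40 for FANCD2, from -0.13 to 0.32 for ATM and from -0.35 to 0.016 for ATR in FOSL1sh10, from -0.043 to 0.36 for ATM for the mean of both hairpins and from -0.061 to 0.30 for ATM between the hairpins, and none of these passed the test.

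The replicate numbers were not used as pairs in the main fit. The correlation of deviations between libraries with the same number ran from -0.116 to 0.183, over 0.1 in 2 of 9 pairs. Between libraries with different numbers it ran from -0.165 to 0.156. With 3 libraries a group these values cannot exclude a pairing. With the replicate block 3, 1, 1 and 3 members were called in the 4 comparisons, and 1456, 695, 812 and 1673 genes in all. Low counts limited RAD54L, RAD54B, TP53BP1, RAD50, FANCB, FANCM and EME1.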
